A study of Vitis vinifera with 16 samples.

Results

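Ovules of the grapevine variety Muscat Hamburg (MH) on day 55 after flowering were compared with Muscat Hamburg ovules on day 45 by RNA sequencing, with 2 libraries on each day. All genes that reached 1 FPKM (fragments per kilobase of transcript per unit of mapped fragments, a level scaled for transcript length and library depth) in at least 2 of the 16 libraries of the series were taken, which kept 12637 of the 13411 genes in the deposited table. The series also holds Muscat Hamburg ovules of day 35 and day 61, and Zhongpu No. 18 (ZP) ovules of days 35, 45, 55 and 61, each with 2 libraries. The groups used here are thus MH day 55, MH day 45, ZP day 55 and ZP day 45, with MH day 35 and MH day 61 given for the time course. No treatment or genetic change is named in the labels. The series title speaks of seedless and seeded grape ovules and of lignin, and the sample labels do not say which variety is seedless. Ovules were frozen with the skin kept, and a company extracted and sequenced the RNA. Nothing in the labels ties the replicate libraries to separate vines or clusters, so each p-value rests on a spread between libraries that may be technical.

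A grape ovule that develops into a seed holds an embryo and an endosperm inside a coat that hardens with lignin and tannins. During seed maturation the embryo and endosperm lay down storage proteins and oil. Late embryogenesis abundant (LEA) proteins and dehydrins, small soluble proteins that protect cells as they dry, accumulate toward the end of that phase. Small heat shock proteins (sHSPs) are chaperones that hold unfolded proteins in solution, and plants make them in heat as well as in ripening seeds. Young seeds are green, and their plastids lose the photosynthetic apparatus as they mature.

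Of the 12637 genes, 1780 were called (14.1%) in limma's moderated test, at an adjusted p under 0.05: 730 were higher on day 55 (5.78%) and 1050 were lower (8.31%). The share of calls that were higher, 41%, was 50.3% after quantile normalization, 46.6% with median-ratio scaling and 33.1% when rescaled without the seed lists. It was 50.6% without MH55 replicate 1 and between 33.1% and 46.6% without any other one of the 4 libraries, so the excess of falls over all calls depended on the scaling and on that library. A change is the difference between day 55 and day 45 in mean log2(FPKM + 1), so a positive change means higher on day 55, and the scale understates the change of genes with low levels. With a change of at least 1 on that scale, 169 genes were higher (1.34%) and 287 were lower (2.27%), and under the same alternatives 32.5% to 40.8% of such calls were higher. The day-55 and day-45 libraries did not overlap in any of the 1780 called genes, nor in 3637 others. Lack of overlap in a called gene named below therefore adds nothing to its call. Among the called genes the median size of the change was 0.69. The median change over all tested genes was -0.01. Counts of called members in the gene lists below stand beside 5.78% higher and 8.31% lower over all tested genes.

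These calls use a spread shared over the 8 groups of the series. MH day 55 and MH day 45 had the widest spread of these. Their median standard deviations were 0.156 and 0.144, against 0.0493 to 0.131 in the other groups. The shared spread can thus be too small for this pair. A fit to the 8 MH libraries alone called 900 genes, a fit with weights for each group called 984, and a fit to the 4 compared libraries, with 2 residual degrees of freedom, called 15. Unless a loss is stated, the call of each gene named below held in every alternative fit other than that to 4 libraries. A gene given as "additional" falls outside the naming rule and was chosen after its values were seen. Estimated depth lay between 2.00e+07 and 3.00e+07 fragments per library, with 2.76e+07 and 2.00e+07 for day 55 and 2.95e+07 and 2.28e+07 for day 45. Replicate 1 stood above replicate 2 for many seed genes on both days: the median difference over the LEA and dehydrin list was 0.42 on day 55 and 0.36 on day 45, against -0.11 and -0.10 over all tested genes. Reads shared by near-identical copies (sHSPs, chlorophyll a-b binding proteins, storage proteins, lipid-transfer proteins, laccases) may be split between them in a way not given in the sources used here, as may reads of overlapping or antisense genes. In whole ovules, fewer cells of a type and less RNA per cell cannot be told apart.

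**Figure D1:**
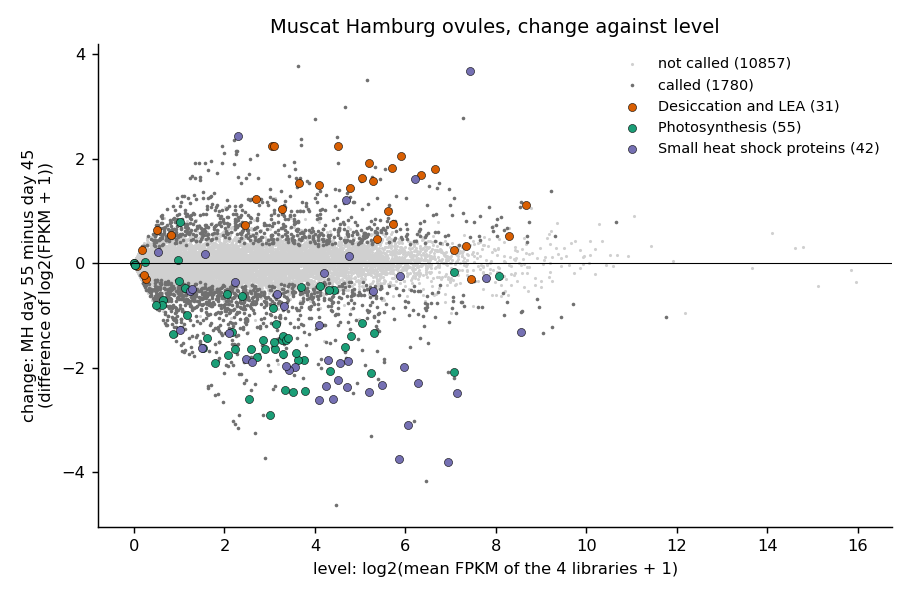
Each point is a tested gene, with its level (log2 of the mean FPKM of the 4 MH libraries, plus 1) on the horizontal axis and its change from day 45 to day 55 on the vertical axis. Colours mark 31 desiccation and LEA genes, 55 photosynthesis genes and 42 sHSPs: most desiccation genes lie above 0, and most photosynthesis genes and sHSPs lie below 0.

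The largest rises included MRIP1, a proline-rich protein related to extensins of the cell wall. It had 21.8 and 22.2 FPKM on day 55, against 0.276 and 1.21 FPKM on day 45 (change 3.78 ± 0.27 SE, n = 2 libraries a day, limma adjusted p = 9.2e-07). Next came LOC100262906, a 17.3 kDa class II sHSP at chr4:1262434-1263408 (assembly ASM3070453v1), with 402 and 231 FPKM on day 55, against 30.1 and 17.3 FPKM on day 45 (change 3.68 ± 0.32 SE, limma adjusted p = 4.9e-06). Both were named under a rule that asks for days without overlap. Other rises were LOC104878114, a putative lipid-transfer protein of the DIR1 type (43.3 and 12.1 FPKM on day 55, against 2.94 and 2.17 FPKM on day 45), and LOC104880883, an F-box/kelch-repeat protein (17.9 and 23.1 FPKM, against 3.33 and 3.55 FPKM).

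Falls reached further than rises. LOC100240776, additional and described only as uncharacterized, had the lowest change of all tested genes: 1.09 and 0.339 FPKM on day 55, against 51.9 and 31.0 FPKM on day 45 (change -4.62 ± 0.24 SE, limma adjusted p = 9.8e-08). Non-specific lipid-transfer protein 2 (LOC100244704, chr14:20165318-20165833), of a family of small secreted proteins that bind lipids, had 9.71 and 6.39 FPKM on day 55, against 219 and 114 FPKM on day 45 (change -4.16 ± 0.29 SE, limma adjusted p = 7.7e-07). LOC100253899, a 14 kDa proline-rich protein DC2.15, fell to 15.0 and 15.0 FPKM on day 55, against 143 and 116 FPKM on day 45. LOC100255716, a DMR6-LIKE OXYGENASE 1 gene, was nearly off on day 55, at 0.168 and 0.269 FPKM, against 10.3 and 10.9 FPKM on day 45 (change -3.25). In each of these falls the day-55 libraries lay below both day-45 libraries, as held for every gene called lower.

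**Figure D2:**
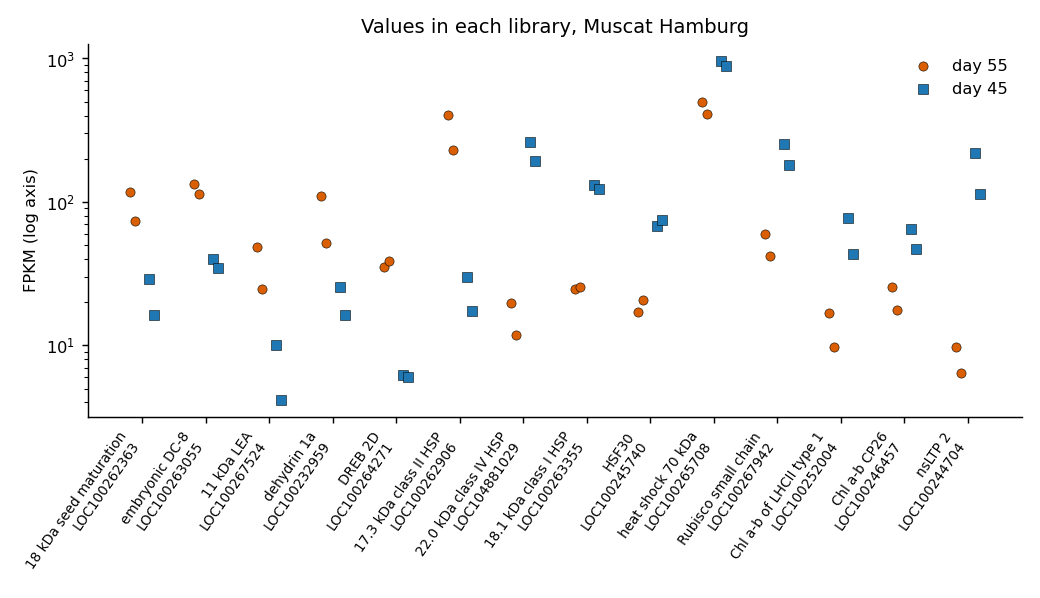
FPKM of 14 genes in each library on a log axis, day 55 as circles and day 45 as squares. The desiccation genes, DREB2D and the 17.3 kDa class II sHSP are higher on day 55, and the other sHSPs, HSF30, HSP70, the photosynthesis genes and lipid-transfer protein 2 are lower. No gene shown has overlapping days, as held for every called gene.

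The desiccation and late embryogenesis list rose. Of its 31 tested members, 19 were called higher (61.3%, against 5.78% over all tested genes) and 0 lower. Of the 19, 15 rose by at least 1, and the median change of the list was 1.03. Its summed level was 2738 and 2010 FPKM on day 55, against 1413 and 1170 FPKM on day 45. Leaving out a library of either day moved the median between 0.69 and 1.47. The count of calls was 14 in the fit to MH libraries alone and 0 in the fit to 4 libraries.

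Seed maturation proteins and LEA proteins led this list. LOC100267524, an 11 kDa LEA protein at chr8:21422143-21423062, had 48.7 and 24.8 FPKM on day 55, against 10.1 and 4.16 FPKM on day 45 (change 2.24 ± 0.34 SE, limma adjusted p = 6.5e-04). Its neighbour LOC100262363, an 18 kDa seed maturation protein at chr8:21424491-21425225, had 117 and 73.8 FPKM on day 55, against 29.1 and 16.3 FPKM on day 45 (change 2.04 ± 0.28 SE, limma adjusted p = 2.7e-04). The second 18 kDa seed maturation protein of the list, LOC100257252, had 17.8 and 7.89 FPKM on day 55, against 2.14 and 1.39 FPKM on day 45. All of these genes were higher in replicate 1 than in replicate 2 on each day. Lack of overlap between the days was a condition for naming them.

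The seed biotin-containing protein SBP65 (LOC104880824), a LEA-type protein that binds biotin in pea seeds, had 14.0 and 12.3 FPKM on day 55, against 2.13 and 1.86 FPKM on day 45. Embryonic protein DC-8 (LOC100263055, additional), named after a carrot embryo gene, had 132 and 113 FPKM on day 55, against 39.9 and 34.7 FPKM on day 45 (change 1.69 ± 0.20 SE, limma adjusted p = 7.0e-05). These genes differed little between replicates. Dehydrin 1a (LOC100232959, additional) had 110 and 51.7 FPKM on day 55, against 25.6 and 16.3 FPKM on day 45 (change 1.83). A 1-Cys peroxiredoxin (LOC100259564), a seed antioxidant of embryo and aleurone, had 183 and 131 FPKM on day 55, against 48.2 and 39.7 FPKM on day 45 (change 1.80). LEA proteins B19.3 (LOC100255849, additional; change 1.58) and D-29 (LOC100252810, additional; change 1.45) rose as well. The 12 members that were not called are left out of that count and had changes of either sign.

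Regulators that act with drying and with abscisic acid (ABA), the hormone of seed maturation, moved less uniformly. DREB2D (LOC100264271), a factor that binds the dehydration-responsive element, had 35.4 and 38.8 FPKM on day 55, against 6.21 and 5.98 FPKM on day 45 (change 2.42 ± 0.14 SE, limma adjusted p = 2.0e-07). Protein phosphatase 2C 77 (LOC100251367), of the family that holds ABA signalling in check, had 23.8 and 18.2 FPKM on day 55, against 12.4 and 9.65 FPKM on day 45 (change 0.87). ABSCISIC ACID-INSENSITIVE 5 (LOC100247734), a bZIP factor that switches on LEA genes in Arabidopsis, had 16.4 and 17.9 FPKM on day 55, against 10.1 and 11.9 FPKM on day 45. Its change was 0.60 and its call was lost without MH45 replicate 1. Over the 82 ABA genes, mostly protein phosphatases 2C, 8 rose and 7 fell, and the median change was 0.05.

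Storage protein genes were among the most abundant genes of the ovule on both days, and no change was called for the top ones. The 23 genes of the storage list made up 40.6% and 36.1% of all FPKM on day 55, against 44.8% and 40.4% on day 45. The cruciferin CRU1 gene LOC100246409, an 11S globulin, had 58266 and 54673 FPKM on day 55, against 62075 and 61507 FPKM on day 45. The 2S albumin gene LOC100252101 had 78596 and 33655 FPKM on day 55, against 101706 and 42123 FPKM on day 45. Legumin A (LOC100241281) had 31889 and 29148 FPKM on day 55, against 41781 and 40397 FPKM on day 45. Days overlapped for the 2S albumin and did not for cruciferin and legumin A, and none of these genes was called, with standard errors of 0.99 to 1.92, nor in the fit to the 8 MH libraries alone.

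Among the 23 storage genes 7 rose and 1 fell, and the median change was 0.14, and the called members were of low level but for the vicilin-like gene LOC100256465. That gene had 250 and 373 FPKM on day 55, against 121 and 172 FPKM on day 45 (change 1.07), and its call was lost in the fit to MH libraries alone, with a pseudocount of 0.1, without MH55 replicate 2 and without MH45 replicate 1. A 13S globulin basic chain gene (LOC100263489, additional) had 5.81 and 7.74 FPKM on day 55, against 0.899 and 0.606 FPKM on day 45 (change 2.14). Of the 19 oil body genes only oil body-associated protein 2B (LOC100246418) was called, at 593 and 412 FPKM on day 55, against 279 and 197 FPKM on day 45. Its call was lost in the fits to MH libraries alone and with group weights, and without MH55 replicate 1 or MH45 replicate 2. Of 37 genes of fatty acid and oil synthesis, 1 was called in each direction. Vacuolar-processing enzyme LOC100251259, a protease of the type that matures storage proteins, fell to 6.72 and 8.76 FPKM on day 55, against 29.6 and 31.6 FPKM on day 45 (change -1.86).

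Galactinol synthases make the galactosyl donor for raffinose sugars, and 2 of the 5 tested were called lower and 0 higher. Galactinol synthase 1 (LOC100255485) had 2.06 and 1.60 FPKM on day 55, against 14.7 and 12.1 FPKM on day 45 (change -2.35 ± 0.19 SE, limma adjusted p = 3.3e-06). Galactinol synthase 2 (LOC100250305, additional) had 0.721 and 0.638 FPKM on day 55, against 6.23 and 4.71 FPKM on day 45. The other three synthases were not called, and LOC100260266, the most abundant of the 5 on day 55, had a change of 0.15. Of the 12 genes in the raffinose list, 1 was called higher and 3 lower, and the median change was -0.05.

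Small heat shock proteins fell, with a few exceptions that rose. Of 42 tested members, 28 were called lower and 4 higher, against 8.31% lower and 5.78% higher over all genes, and the median change was -1.72. In the fit to MH libraries alone 22 were lower, and in the fit to 4 libraries 2 were. The summed level was 1495 and 1028 FPKM on day 55, against 2824 and 2085 FPKM on day 45. By subgroup, chosen after values were seen, 14 of 17 class I genes, 7 of 13 class II genes and 7 of the other 12 were called lower.

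The class IV gene LOC104881029 (chr12:24228591-24229603) had 19.7 and 11.9 FPKM on day 55, against 263 and 193 FPKM on day 45 (change -3.79 ± 0.25 SE, limma adjusted p = 5.5e-07). The 17.1 kDa class II gene LOC100266315 had 9.26 and 5.02 FPKM on day 55, against 133 and 81.6 FPKM on day 45 (change -3.74). The 18.1 kDa class I gene LOC100263355, additional, had 24.6 and 25.7 FPKM on day 55, against 130 and 124 FPKM on day 45 (change -2.29). In all of these every day-55 library was below every day-45 library, as held for every gene called lower. The 17.8 kDa and 18.2 kDa class I genes LOC100263791 and LOC100244376 had changes of -2.61 and -2.59.

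The 4 sHSPs that rose belong to classes I and II too. Beside LOC100262906, described above, they were LOC100252434 (17.1 kDa class II-like, additional) with 9.00 and 5.51 FPKM on day 55, against 0.863 and 0.186 FPKM on day 45; LOC100256188 (17.6 kDa class I, additional) with 134 and 87.3 FPKM, against 42.4 and 28.3 FPKM; and LOC100264933 (16.9 kDa class I, additional) with 44.6 and 25.6 FPKM, against 18.8 and 10.4 FPKM. The call of LOC100256188 was lost with a pseudocount of 0.1, and that of LOC100264933 also in the fit to MH libraries alone and without MH55 replicate 1 or MH45 replicate 2. On day 55 LOC100262906 was the sHSP with the highest level in FPKM. On day 45 that place was held by the 18.1 kDa class I gene LOC100254733 (additional), which had 266.9 and 164.7 FPKM on day 55, against 625.8 and 431.9 FPKM on day 45. Its change of -1.31 lost its call in the fit to MH libraries alone and without MH55 replicate 2 or MH45 replicate 1. Not called was the mitochondrial 23.6 kDa sHSP LOC100253548 (additional), with 210.4 and 184.5 FPKM on day 55, against 247.4 and 230.4 FPKM on day 45.

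Larger chaperones and heat shock factors followed in part: of 79 genes, 20 fell (25.3%) and 6 rose (7.59%), and the median change was -0.19. HSF30 (LOC100245740), named after a tomato heat shock factor that switches on heat shock genes, had 16.9 and 20.6 FPKM on day 55, against 68.0 and 75.0 FPKM on day 45 (change -1.88 ± 0.13 SE, limma adjusted p = 6.8e-07). Heat shock protein 83 (LOC100257736), of the HSP90 family, had 16.5 and 20.7 FPKM on day 55, against 55.4 and 68.5 FPKM on day 45 (change -1.68). The abundant 70 kDa heat shock protein gene LOC100265708, additional, had 498 and 412 FPKM on day 55, against 961 and 885 FPKM on day 45 (change -1.02). HSP101 (additional), a disaggregase needed for heat tolerance in Arabidopsis, had 103 and 121 FPKM on day 55, against 173 and 206 FPKM on day 45. The mitochondrial chaperones ClpB4 (LOC100247399, change -1.26) and CPN60-2 (LOC100244356, change -1.12) fell as well. Of 4 class B heat shock factors 2 were called higher and 0 lower: B-2a (LOC100243443, additional) had 21.4 and 22.3 FPKM on day 55, against 10.3 and 11.5 FPKM on day 45, and B-2b (LOC100256486, additional) had a change of 0.80.

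Storage proteins enter the secretory route in the endoplasmic reticulum. Of 30 genes of protein folding there, 8 were called lower (26.7%, against 8.31% over all tested genes) and 0 higher. The median change was -0.23. Protein disulfide isomerase-like 2-3 (LOC100243120) had 63.8 and 66.3 FPKM on day 55, against 131 and 135 FPKM on day 45 (change -1.02 ± 0.09 SE, limma adjusted p = 8.7e-06). Luminal-binding protein 5 (LOC100251379), the HSP70 of that compartment, had 210 and 244 FPKM on day 55, against 336 and 423 FPKM on day 45, and calreticulin-3 (LOC100265011) had 79.1 and 108 FPKM, against 157 and 207 FPKM. The calls of luminal-binding protein 5 and calreticulin-3 were lost in the fit to MH libraries alone. Without MH55 replicate 1 the median change of the list was -0.05, and without MH45 replicate 2 it was -0.13.

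Photosynthesis genes of the nucleus fell. Of 55 tested members, 41 were called lower (74.5%, against 8.31% over all tested genes) and 0 higher. Of the 41, 34 fell by at least 1, and the median change of the list was -1.39. In the fit to MH libraries alone 32 were lower, and in that to 4 libraries 0. The summed level was 657 and 644 FPKM on day 55, against 1434 and 1232 FPKM on day 45. Much of the day-55 sum came from a phosphoribulokinase gene (LOC100256246) and a Rubisco small chain gene (LOC100256536) that were not called. By subgroup, chosen after values were seen, 14 of 18 light-harvesting genes, 9 of 11 photosystem I genes, 10 of 12 photosystem II genes and 5 of 8 genes of the Calvin cycle were called lower.

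The Rubisco small chain gene LOC100267942 (additional), part of the enzyme that fixes carbon, had 59.4 and 42.2 FPKM on day 55, against 255 and 180 FPKM on day 45 (change -2.08 ± 0.23 SE, limma adjusted p = 4.6e-05). The light-harvesting gene LOC100252004 (chlorophyll a-b binding protein of LHCII type, additional) had 16.7 and 9.74 FPKM on day 55, against 77.7 and 43.7 FPKM on day 45, and LOC100241745 of the same type had 1.44 and 0.348 FPKM, against 17.6 and 8.91 FPKM. Chlorophyll a-b binding proteins 4 and 6 (LOC100232934 and LOC100263275), antenna proteins of photosystem I, had changes of -2.46 and -2.45. No day-55 library reached a day-45 library in these genes, as held for every gene called lower. PSBP1 (additional), of the oxygen-evolving complex, had 8.10 and 5.66 FPKM on day 55, against 33.9 and 28.8 FPKM on day 45. Phosphoribulokinase (LOC100244092, additional), which regenerates the acceptor of the Calvin cycle, had 3.80 and 4.36 FPKM on day 55, against 12.2 and 13.9 FPKM on day 45. Some abundant members were not called, among them a second phosphoribulokinase gene (LOC100256246, additional), with 213.0 and 277.4 FPKM on day 55, against 250.3 and 332.6 FPKM on day 45. A second Rubisco small chain gene (LOC100256536, additional) was not called either, with 125.9 and 126.3 FPKM on day 55, against 147.9 and 135.1 FPKM on day 45.

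**Figure D3:**
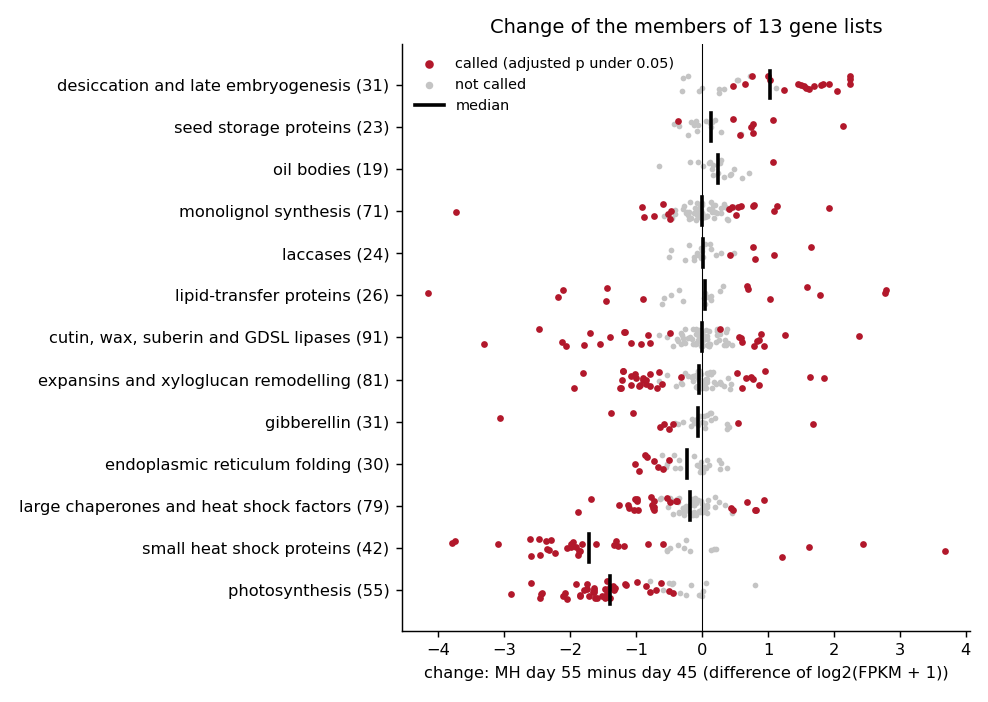
Change from day 45 to day 55 of each tested member of selected gene lists (number of members in brackets), with called members in red, other members in grey and the median as a black bar. The desiccation list has its median at 1.03, sHSPs at -1.72 and photosynthesis genes at -1.39, and the other lists shown have medians between -0.23 and 0.24.

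Of 18 ovule and seed coat regulators 4 were called lower (22.2%) and 1 higher (5.56%), against 8.31% and 5.78% over all tested genes. TRANSPARENT TESTA 16 (LOC100244209), a MADS-box factor of the inner seed coat in Arabidopsis, had 5.53 and 7.22 FPKM on day 55, against 14.3 and 18.1 FPKM on day 45 (change -1.22 ± 0.14 SE, limma adjusted p = 5.5e-05). TRANSPARENT TESTA 1 (LOC100264302, additional), a zinc-finger factor of seed coat tannin, was listed at 0 in both day-55 libraries and had 1.46 and 1.58 FPKM on day 45. BEL1-like homeodomain protein 2 (LOC100261554, additional) had 0.452 and 0.561 FPKM on day 55, against 5.16 and 5.71 FPKM on day 45. MADS3 had 26.2 and 25.6 FPKM on day 55, against 37.8 and 42.8 FPKM on day 45, and lost its call in the fit to MH libraries alone. The member that rose was YABBY 1 (LOC100243667, additional), of a family that sets leaf and ovule polarity, with 4.17 and 5.99 FPKM on day 55, against 0.697 and 0.489 FPKM on day 45.

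Of 34 flavonoid genes 4 were called higher and 3 lower. Flavonoid 3'-monooxygenase LOC100254375 had 4.70 and 4.84 FPKM on day 55, against 11.7 and 11.7 FPKM on day 45 (change -1.14). Anthocyanidin reductase makes the epicatechin units of seed tannin. Its abundant gene ANR (additional) had 466 and 481 FPKM on day 55, against 387 and 434 FPKM on day 45, and was not called (change 0.21). A second, low gene of that description (LOC100241597, additional) fell to 0.771 and 0.980 FPKM on day 55, against 5.91 and 5.91 FPKM on day 45 (change -1.88). A flavonoid 3',5'-hydroxylase 2 gene, LOC100256733 (additional), was listed at 0 on day 55, against 7.80 and 7.97 FPKM on day 45, while LOC100247021 with the same description had 15.1 and 12.4 FPKM, against 8.01 and 7.27 FPKM. Each of these hydroxylase genes overlaps another annotated gene. Chalcone--flavonone isomerase (CHI) had 318 and 294 FPKM on day 55, against 220 and 204 FPKM on day 45 (change 0.52), and lost its call without MH45 replicate 2. Chalcone synthase, the entry to the flavonoid pathway, had 338 and 257 FPKM on day 55, against 204 and 179 FPKM on day 45, for LOC100263443 (change 0.63), and 780 and 705 FPKM, against 522 and 513 FPKM, for LOC100232843 (additional, change 0.52). Both calls were lost in the fit to MH libraries alone, with group weights, with median-ratio scaling and without MH55 replicate 1 or either MH45 replicate, and that of LOC100232843 in further alternatives. None of 11 stilbene synthase genes was called.

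Monolignols are the building blocks of lignin, and phenylalanine ammonia-lyase opens their pathway. Over the 71 genes of all steps, 10 rose and 8 fell, and the median change was 0.00. The most abundant phenylalanine ammonia-lyase gene, LOC100241575, had 220 and 238 FPKM on day 55, against 123 and 142 FPKM on day 45 (change 0.79 ± 0.12 SE, limma adjusted p = 5.9e-04). The cinnamate 4-hydroxylase gene LOC100253493 had 474 and 458 FPKM on day 55, against 349 and 357 FPKM on day 45 (change 0.40, limma adjusted p = 0.044), and lost its call in most alternatives, among them the fit to MH libraries alone and each fit without a library. The top genes of the later steps were not called: the changes were 0.19 for 4-coumarate CoA ligase (4CL), 0.16 for hydroxycinnamoyl transferase (LOC100265530), 0.29 for coumarate 3-hydroxylase (LOC100263633), 0.00 for caffeoylshikimate esterase (LOC100248095), 0.33 for caffeoyl-CoA O-methyltransferase (LOC100243978), -0.04 for ferulate 5-hydroxylase (LOC100250277), -0.11 for cinnamoyl-CoA reductase (LOC100255334) and -0.02 for cinnamyl alcohol dehydrogenase (LOC100257308).

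Less abundant relatives of these enzymes moved in either direction. The gene LOC100255690, described as caffeic acid 3-O-methyltransferase, had 0.0299 and 0.0412 FPKM on day 55, against 14.3 and 11.3 FPKM on day 45 (change -3.73 ± 0.13 SE, limma adjusted p = 5.3e-09). LOC132253142, with the same description, had 11.8 and 13.6 FPKM on day 55, against 5.55 and 5.35 FPKM on day 45 (change 1.08). Of a pair of cinnamoyl-CoA reductase-like SNL6 genes, LOC100257919 had 10.0 and 8.90 FPKM on day 55, against 18.4 and 18.0 FPKM on day 45, and LOC100253987 had 105 and 100 FPKM, against 69.2 and 70.5 FPKM. Members with the same description thus moved in opposite directions.

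Laccases and peroxidases couple monolignols into lignin. Of 24 laccases 5 were called higher (20.8%, against 5.78% over all tested genes) and 0 lower. Laccase-12 (LOC100262045) had 18.2 and 17.8 FPKM on day 55, against 7.39 and 8.49 FPKM on day 45 (change 1.09 ± 0.16 SE, limma adjusted p = 4.1e-04), and laccase-17 (LOC100256283) had 36.6 and 36.9 FPKM, against 18.7 and 22.9 FPKM (change 0.80). The other three were additional and low: LOC100261620 had 3.10 and 3.24 FPKM on day 55, against 0.305 and 0.351 FPKM on day 45, while LOC100251850 and LOC100250072 had changes of 0.78 and 0.42 and lost their calls in several alternatives, among them the fit to MH libraries alone and the fit without MH45 replicate 1. Of 28 class III peroxidases 2 were called higher and 3 lower. Peroxidase 17 (LOC100242338) rose to 18.6 and 25.0 FPKM on day 55, against 8.03 and 10.2 FPKM on day 45, and peroxidase 25 (LOC100262758, additional) fell to 2.52 and 2.54 FPKM, against 5.48 and 7.44 FPKM. Dirigent protein 19 (LOC100260405), of a family that guides the coupling of monolignols, had 14.3 and 14.4 FPKM on day 55, against 27.5 and 31.1 FPKM on day 45.

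Of 56 cellulose and xylan genes of the secondary wall 2 were called higher (3.57%) and 6 lower (10.7%), against 5.78% and 8.31% over all tested genes. COBRA-like protein 4, tied to secondary wall cellulose, had 65.2 and 74.4 FPKM on day 55, against 118 and 119 FPKM on day 45 (change -0.76). Of 9 NAC and MYB regulators of that wall, NAC domain-containing protein 43 (LOC100245500, additional) had 1.62 and 1.89 FPKM on day 55, against 0.261 and 0.307 FPKM on day 45. A NAC domain-containing protein 73 gene (LOC100267787, additional) had 1.40 and 1.32 FPKM on day 55, against 4.51 and 6.79 FPKM on day 45.

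Of 91 cuticle genes 11 were called higher (12.1%) and 15 lower (16.5%), against 5.78% and 8.31% over all tested genes. The median change of the list was -0.004. The GDSL esterase/lipase LOC100251646 had 5.27 and 6.48 FPKM on day 55, against 63.1 and 71.0 FPKM on day 45 (change -3.31 ± 0.18 SE, limma adjusted p = 1.4e-07), and GDSL esterase/lipase 1 (LOC100259984) had 19.2 and 22.2 FPKM, against 3.31 and 3.02 FPKM (change 2.38). 3-ketoacyl-CoA synthase 6 (LOC100266928), which elongates the fatty acids of wax, had 7.19 and 8.38 FPKM on day 55, against 43.9 and 51.7 FPKM on day 45 (change -2.47). 3-ketoacyl-CoA synthase 11 (LOC100263066, change -2.07) and the wax genes ECERIFERUM 1 (LOC100260880, additional, change -1.79), ECERIFERUM 3 (LOC100248411, additional, change -1.40) and ECERIFERUM 26 (LOC100252165, additional, change -1.54) were lower too. The E3 ubiquitin ligase gene SUD1 (LOC100259487) had 0.744 and 0.640 FPKM on day 55, against 11.2 and 12.2 FPKM on day 45.

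Lipid-transfer proteins held members at each end of the range of changes: 7 of 26 were called higher and 6 lower, 5 in each direction by at least 1. Non-specific lipid-transfer protein 8 (LOC100245930) had 55.5 and 37.2 FPKM on day 55, against 290 and 153 FPKM on day 45 (change -2.19 ± 0.32 SE, limma adjusted p = 4.1e-04). The lipid-transfer protein 1-like gene LOC100243960 had 380 and 166 FPKM on day 55, against 46.5 and 27.0 FPKM on day 45 (change 2.79 ± 0.66 SE, limma adjusted p = 0.012). That call was lost with group weights, with a pseudocount of 0.1 and without MH55 replicate 1 or MH45 replicate 2. The abundant lipid-transfer protein A-like gene LOC100266074 had 42138 and 20708 FPKM on day 55, against 33532 and 16709 FPKM on day 45, with overlapping days and no call.

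Expansins and xyloglucan enzymes loosen or rebuild primary walls. Of 81 such genes 23 were called lower (28.4%) and 9 higher (11.1%), 11 and 2 of them by at least 1. Over all tested genes the shares were 8.31% lower and 5.78% higher. The xyloglucan endotransglucosylase/hydrolase gene LOC100852777 had 13.1 and 13.4 FPKM on day 55, against 50.8 and 57.1 FPKM on day 45 (change -1.95 ± 0.10 SE, limma adjusted p = 1.0e-07). Expansin-B3 (LOC100258655) had 18.4 and 16.1 FPKM on day 55, against 4.70 and 4.97 FPKM on day 45 (change 1.64), whereas expansin-B2 (LOC100253046, additional) had 53.4 and 46.6 FPKM, against 130 and 104 FPKM (change -1.21). An endoglucanase (LOC100255237) rose to 67.7 and 56.1 FPKM on day 55, against 17.9 and 15.1 FPKM on day 45. Among 75 pectin genes 8 were higher and 13 lower, and pectinesterase LOC100252362 had 179 and 185 FPKM on day 55, against 68.3 and 65.4 FPKM on day 45 (change 1.43). The arabinogalactan protein 31 gene LOC100260626 had 77.5 and 65.9 FPKM on day 55, against 21.0 and 18.7 FPKM on day 45 (change 1.80).

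Of 31 gibberellin genes 7 were called lower (22.6%) and 2 higher (6.45%), against 8.31% and 5.78% over all tested genes. Gibberellin 20 oxidase 3 (LOC100249987, additional), of the enzymes that make active gibberellin, was listed at 0 in both day-55 libraries and had 6.89 and 7.95 FPKM on day 45. Gibberellin 3-beta-dioxygenase 1 (LOC100249739, additional), which makes the last step, had 0.306 and 0.379 FPKM on day 55, against 2.63 and 2.37 FPKM on day 45, and gibberellin 20 oxidase 2 (LOC100255041, additional) had 0.896 and 1.02 FPKM, against 2.68 and 3.45 FPKM. Gibberellin-regulated protein 11 (LOC100265557) rose to 20.9 and 10.1 FPKM on day 55, against 4.80 and 3.08 FPKM on day 45. Of the other hormone lists, auxin had 6 of 88 higher (6.82%) and 5 lower (5.68%), and cytokinin had 5 of 67 (7.46%) and 11 (16.4%). Ethylene had 10 of 103 higher (9.71%) and 5 lower (4.85%), and jasmonate had 6 of 34 (17.6%) and 0. Brassinosteroid had 1 of 27 higher (3.7%) and 2 lower (7.41%). The auxin-responsive repressor IAA18 (LOC100266914) had 26.3 and 35.0 FPKM on day 55, against 9.99 and 11.5 FPKM on day 45 (change 1.42). Protein TIFY 10A (LOC100260039), a repressor of jasmonate responses, had 19.8 and 22.6 FPKM on day 55, against 9.73 and 12.8 FPKM on day 45.

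Of 63 genes of sucrose metabolism and sugar transport 7 were called higher (11.1%) and 7 lower (11.1%), against 5.78% and 8.31% over all tested genes. The hexose transporter LOC100233083 had 6.28 and 5.64 FPKM on day 55, against 25.1 and 26.1 FPKM on day 45 (change -1.93 ± 0.11 SE, limma adjusted p = 1.8e-07). Cell wall invertase (CWINV), which splits imported sucrose, had 3.54 and 4.95 FPKM on day 55, against 9.76 and 13.5 FPKM on day 45 (change -1.27). SWEET15 (LOC100243643), a sucrose exporter that feeds the embryo in Arabidopsis seeds, had 535 and 688 FPKM on day 55, against 973 and 1116 FPKM on day 45. Its change of -0.78 lost its call in the fit to MH libraries alone and without MH55 replicate 1 or MH45 replicate 2. Of 176 water and nutrient transporters 16 were higher and 27 lower. Vacuolar amino acid transporter 1 (LOC100255991) had 33.4 and 42.3 FPKM on day 55, against 12.0 and 14.0 FPKM on day 45, and potassium transporter 13 (LOC100259787) had 7.52 and 10.2 FPKM, against 23.9 and 29.7 FPKM.

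Antioxidant and defence lists had calls in each direction, as did all tested genes (5.78% higher and 8.31% lower). Of 125 glutathione and antioxidant genes 13 were higher (10.4%) and 12 lower (9.6%). The glutathione S-transferases U17 (LOC100245065) and U8 (LOC100247682), which join glutathione to small molecules, had changes of 1.64 and 1.28. Of 88 pathogenesis-related genes 8 were higher (9.09%) and 11 lower (12.5%). A thaumatin-like protein 1b gene (LOC100248638) had 11.8 and 6.78 FPKM on day 55, against 63.3 and 35.8 FPKM on day 45 (change -2.29), and MLP-like protein 34 (LOC100267971) had 48.0 and 42.8 FPKM, against 134 and 132 FPKM (change -1.53).

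Few genes of dividing cells were called. Of 133 cell cycle genes 4 were called higher (3.01%) and 4 lower (3.01%), against 5.78% and 8.31% over all tested genes. Of 28 histone genes 1 was called higher (3.57%) and 2 lower (7.14%). Between days 35 and 45, 110 of the 133 cell cycle genes and 21 of the 28 histone genes were called lower, against 5337 of 12637 tested genes. Cyclin-D3-1 (LOC100253927, additional), which drives entry into the cycle, had 2.45 and 2.77 FPKM on day 55, against 0.413 and 0.669 FPKM on day 45. The locus LOC104878051 (additional), described as a putative cyclin-B3-1 but annotated as a long non-coding RNA, had 1.79 and 0.865 FPKM on day 55, against 7.29 and 7.71 FPKM on day 45. Of 40 cytosolic ribosomal protein genes 1 was lower and 0 were higher.

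Counts in transcription factor families were read against the 8.31% of all tested genes called lower and the 5.78% called higher. Of 75 homeobox genes 11 were called lower (14.7%) and 3 higher, of 51 bHLH genes 8 (15.7%) and 2, of 33 MADS-box genes 5 (15.2%) and 0, and of 34 NAC genes 5 (14.7%) and 3. The shares called lower of bZIP, WRKY and MYB genes were nearer to or under that of all genes, with 4 of 34 (11.8%), 3 of 42 (7.14%) and 5 of 95 (5.26%), and 3, 2 and 3 were called higher. MYB60, a guard cell factor in Arabidopsis, had 6.53 and 7.03 FPKM on day 55, against 27.5 and 25.7 FPKM on day 45 (change -1.83 ± 0.12 SE, limma adjusted p = 5.2e-07). The MADS-box gene FBP24 (LOC100249015), named after a petunia ovule gene, had 4.77 and 5.46 FPKM on day 55, against 10.6 and 12.2 FPKM on day 45. Among 44 embryo and endosperm regulators 7 were higher and 3 lower. WUSCHEL-related homeobox 11 (LOC100246660, additional) had 1.47 and 1.96 FPKM on day 55, against 0.0950 and 0.185 FPKM on day 45.

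Over the same days ZP ovules moved differently. On ZP day 55 minus ZP day 45, 1895 genes were called higher (15.0%) and 2155 lower (17.1%). The test of the difference between the varieties (MH change minus ZP change) called 1691 genes with the MH change above the ZP change (13.4%) and 1826 below it (14.4%). Of the 1780 genes called in MH, 746 were also called in ZP, which is 41.9% of the MH calls and 18.4% of the ZP calls: 373 had the same direction and 373 the opposite. The difference between the varieties was called for 1150 of the 1780. That test uses the same MH libraries as the MH calls, so choosing genes called in MH raises this share by itself.

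The desiccation list had a median change of 1.03 in MH and 0.00 in ZP, and the difference was called with MH above ZP for 19 of 31 genes and below for 2. LOC100262363, the seed maturation protein, had a change of 2.04 in MH and -1.25 in ZP (difference 3.30, limma adjusted p = 5.0e-05). Photosynthesis genes went opposite ways: 0 were higher and 41 lower in MH, whereas 31 were higher and 1 lower in ZP, and the difference was called with MH below ZP for 45 of 55. The Rubisco small chain gene LOC100267942 had 886 and 1037 FPKM on ZP day 55, against 554 and 486 FPKM on ZP day 45. For sHSPs the median change was -1.72 in MH and 0.14 in ZP, and MH lay below ZP in the call for 28 of 42 and above it for 3. HSF30 (LOC100245740) had a change of -1.88 in MH and 1.86 in ZP, where it had 149 and 149 FPKM on day 55, against 40.6 and 39.7 FPKM on day 45.

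Laccases and secondary wall genes differed between the varieties as well. Laccase-12 (LOC100262045) had a change of 1.09 in MH and -1.13 in ZP, and laccase-17 (LOC100256283) had 0.80 in MH and -1.74 in ZP. The difference was called with MH above ZP for 14 of 24 laccases and below it for 1. Over the whole list, 5 were called higher and 0 lower in MH, and 1 higher and 11 lower in ZP. For secondary wall genes the difference was called with MH above ZP for 23 of 56 and below for 3, and 6 were called lower in MH and 27 in ZP.

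**Figure D4:**
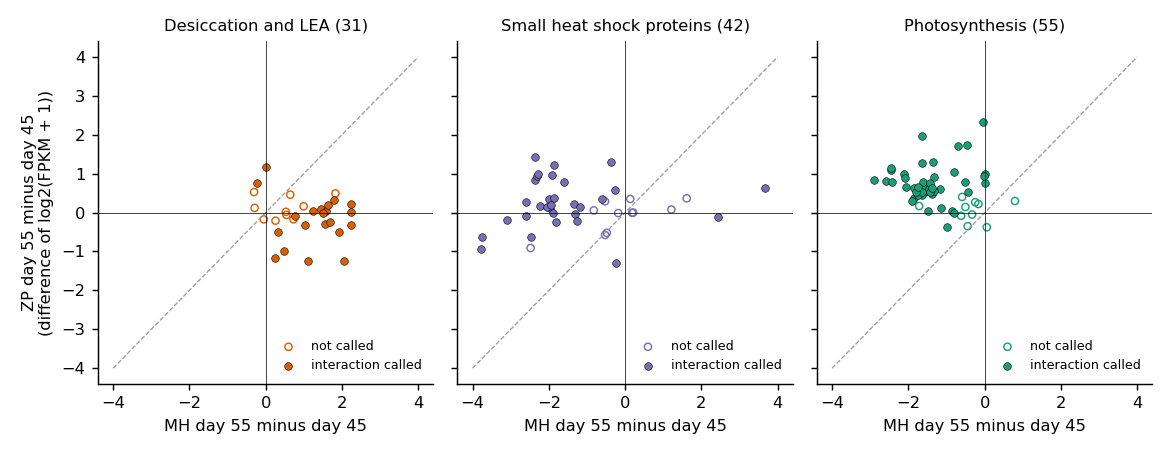
Change from day 45 to day 55 in MH (horizontal) against the change over the same days in ZP (vertical) for each member of 3 lists, with filled points where the difference between the varieties was called and a dashed line of equal change. Desiccation genes lie mostly to the right of 0 in MH and near 0 in ZP, and most sHSPs and photosynthesis genes lie to the left of 0 in MH and at or above 0 in ZP.

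The neighbouring intervals in MH share libraries with this comparison, and their values are given side by side only. The median change of the desiccation list was 0.69 between days 35 and 45, 1.03 between days 45 and 55 and 1.89 between days 55 and 61. Photosynthesis genes had medians of -1.05, -1.39 and -0.37 over those intervals, and sHSPs had 1.34, -1.72 and -1.30. DREB2D (LOC100264271) had 0.0893 and 0.205 FPKM on day 35, and 163 and 169 FPKM on day 61. MRIP1 reached 1433 and 1765 FPKM on day 61. Some rises from day 45 followed a fall from day 35. Between days 35 and 45, 2 of 24 laccases were called higher and 11 lower. Laccase-17 (LOC100256283) had 122.5 and 106 FPKM on day 35, and 13.18 and 15.85 FPKM on day 61. Over days 35 to 45, 3 of 28 class III peroxidases were called higher and 10 lower, and peroxidase 17 had 45.5 and 45.1 FPKM on day 35. For the 31 desiccation genes these counts were 16 and 3, and SBP65 had 13.3 and 11.9 FPKM on day 35. The sHSP LOC100262906 had 1711 and 1292 FPKM on day 61, when the summed sHSP level was 2972 and 2318 FPKM although 29 of the 42 members were called lower than on day 55.

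**Figure D5:**
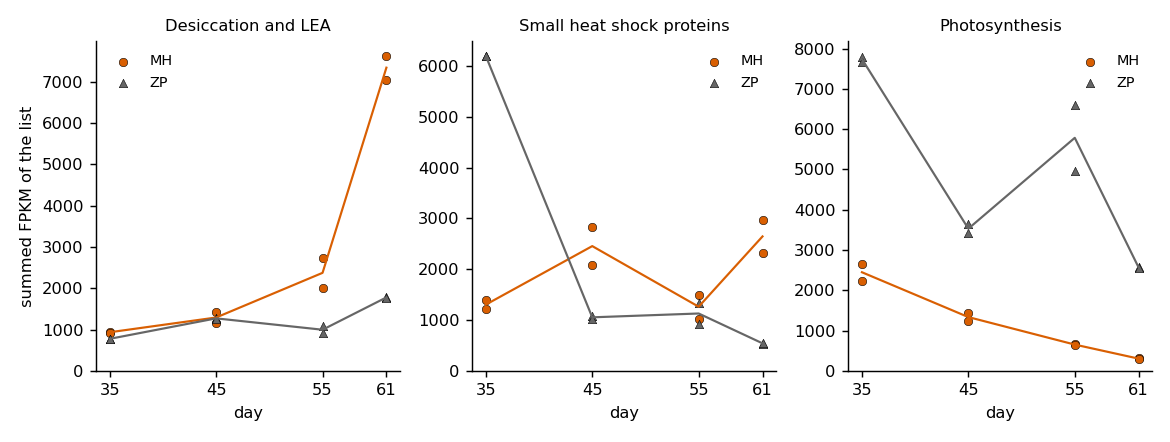
Summed FPKM of the desiccation, sHSP and photosynthesis lists by day, with each library as a point (circles MH, triangles ZP) and lines through the group means. In MH the desiccation sum is 2738 and 2010 FPKM on day 55 and 7640 and 7053 FPKM on day 61, and the photosynthesis sum is lower on each later day.

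Markers of the tissues an ovule could hold were read beside these results. The 26 seed storage markers summed to 216571 and 157082 FPKM on day 55, against 244073 and 178674 FPKM on day 45. The 7 seed coat markers summed to 723.5 and 696.3 FPKM on day 55, against 587.0 and 626.6 FPKM on day 45, with 0 called higher, 3 called lower and none at 0 in all 4 libraries. Nearly all of that sum came from anthocyanidin reductase and leucoanthocyanidin reductase genes. The 3 TRANSPARENT TESTA genes summed to 5.80 and 7.66 FPKM on day 55, against 16.0 and 20.1 FPKM on day 45. The 59 pericarp and skin markers summed to 4001 and 3920 FPKM on day 55, against 3561 and 3497 FPKM on day 45, with 3 called higher and 9 lower. Of these, 26 were under 1 FPKM in all 4 libraries and 1 was at 0 in all of them. Nearly all of the sum came from 8 GRIP and ripening-related genes, with 3870 and 3805 FPKM on day 55, against 3421 and 3368 FPKM on day 45. The skin thaumatin VVTL1 had 0.953 and 0.437 FPKM on day 55, against 0.923 and 0.555 FPKM on day 45. The 14 vascular markers summed to 13.7 and 14.3 FPKM on day 55, against 12.2 and 12.5 FPKM on day 45, with 9 under 1 FPKM. A wider vascular list of 22 genes, which adds the CLE peptide genes, summed to 2635 and 2025 FPKM on day 55, against 5253 and 4157 FPKM on day 45, with 1 called higher and 3 lower, and the lower ones were CLE genes. Nearly all of that sum was the CLE-related protein 1-like gene LOC104882072, with 2595 and 1982 FPKM on day 55, against 5202 and 4108 FPKM on day 45 (change -1.03), whose call was lost in the fit to MH libraries alone, with group weights, median-ratio scaling or quantile normalization, and without any one of the 4 libraries. The green tissue markers are the photosynthesis list itself. The part of tissue shares in the changes above was not tested.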

How the data were processed

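Values are FPKM as deposited, computed by the authors for 13411 genes in 16 libraries, per the file headers. The aligner, counting tool, strand setting and choice of genes are not given in the sources used here. Gene positions in the table matched the ASM3070453v1 annotation for all 12540 genes whose IDs it holds. Depth was estimated from the steps between low values.

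Genes at 1 FPKM or more in at least 2 libraries were tested on log2(FPKM + 1) with limma 3.58.1 in R 4.3.3: 1 mean for each of 8 groups, 8 residual degrees of freedom, a mean-dependent prior and Benjamini-Hochberg adjustment over 12637 genes, called under 0.05. SE is that of the fit. In simulated data with the same spread in every group, 9 of 12437 unchanged genes were called (0.0724%). With the observed spread of each group, 128 of them were called (1.03%). Beside these, 18, 35, 49 and 50 of 50 genes with set changes of 0.5, 1, 2 and 3 were called. In that simulation false calls were thus a larger part of the calls than the threshold of 0.05 states.

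Named genes are the 12 largest called rises and falls among described genes that averaged 10 FPKM or more on either day and whose days did not overlap. To these come up to 4 called members of each list of at least 3, the top gene of each monolignol step, the 5 largest interactions in each direction and the 5 most abundant genes; some are left out for length. Gene lists are word patterns on descriptions. Genes, lists and tests were chosen with earlier results of these data known. A caffeic acid 3-O-methyltransferase gene that the rule names is not reported here. Alternatives were 14 other fits or scalings, and leaving out a ZP library was chosen after seeing the data.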

Additional observations from a re-analysis of the deposited data

Results flagged for a closer look

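Limma's test of the difference (adjusted p under 0.05) asked whether the change from day 45 to day 55 differed between MH and ZP. It called 104 of the 148 named genes called in MH, and 1150 of all 1780 genes called in MH. The naming rule picks some genes by this test and others by their MH change, which raises such shares by itself. Over all 12637 tested genes the test called 3517. Without 1 of the 4 ZP libraries the count was between 2686 and 3201. The differences below are the MH change minus the ZP change on the log2(FPKM + 1) scale, and each was called.

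Of the genes whose MH change lay below the ZP change, LOC100253899, a 14 kDa proline-rich protein DC2.15, had a difference of -5.11, with 15.0 and 15.0 FPKM on MH day 55, against 143 and 116 FPKM on MH day 45, and with 108 and 123 FPKM on ZP day 55, against 24.2 and 28.7 FPKM on ZP day 45. LOC100255716, a DMR6-LIKE OXYGENASE 1 gene, had a difference of -4.17, with changes of -3.25 in MH and 0.93 in ZP. The 17.3 kDa class II sHSP LOC100254252 had -3.78, galactinol synthase 1 (LOC100255485) had -3.75 and the heat shock factor gene HSF30 (LOC100245740) had -3.74. In these 5 genes every MH library of day 55 lay below those of day 45, where the naming rule asks for MH days without overlap. Every ZP library of day 55 lay above those of day 45 in the same genes.

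Of the genes whose MH change lay above the ZP change, LOC132254164, described as a lysosomal thiol reductase but annotated as a long non-coding RNA, had a difference of 3.33 and the 2-oxoglutarate-dependent dioxygenase DAO (LOC100246634), of a family that oxidises auxin, had 2.72. Neither was called in MH, with changes of 0.62 and 0.52, and their ZP changes were -2.71 and -2.19. The 18 kDa seed maturation protein LOC100262363 had 3.30, MRIP1 had 3.26 and the 17.3 kDa class II sHSP LOC100262906 had 3.04.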

How the results depend on the processing

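Against 1780 genes called, the fit to the 8 MH libraries called 900, group weights 984, the fit to 4 libraries 15 and the fit with a replicate block 2929. With a change of at least 1, 456 genes were called, against 1029 with log2(FPKM + 0.1) and 15 in the fit to 4 libraries. That fit, with 2 residual degrees of freedom, called 0 desiccation genes higher, 0 photosynthesis genes lower and 2 sHSPs lower. Leaving out a library of MH day 55 or day 45 gave 1325 to 1502 genes, and such a lone library is assumed to vary like the other groups. Of the 1780 calls, 851 held in the fit to 8 MH libraries (47.8%), and no called gene changed sign in any alternative. Over 2296 values of named genes under alternatives, 406 lost a call, 4 gained one and none turned its sign. Many alternatives could not turn the sign of a called gene. Fits that alter only the spread keep the estimate, and days that do not overlap keep their direction without any one library. The lack of turned signs is thus no measure of robustness. Same-numbered libraries deviated together over genes in each of the 6 pairs of MH days (r = 0.408 to 0.728, the highest for days 55 and 45). Between ZP days r was 0.0765 to 0.27. Between MH days and ZP day 55 it was -0.597 to -0.305, and with the other ZP days -0.133 to 0.0826. The MH values hint that MH libraries of one number share something, while those of ZP day 55 deviated the other way. The labels do not say what the numbers mark and each day has 2 libraries, so the fit without the replicate block was kept, beside the 2929 calls with it. At this depth 1 fragment in a transcript of 1 kb is worth 0.0333 to 0.0499 FPKM, which limits the genes listed near 0.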
